A study of Mus musculus with 23 samples.

Results

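The transcripts of p53, of its 2 inhibitors and of 7 of its target genes were followed in mouse embryonic stem (ES) cells that lose, regain or lack Argonaute proteins. The 10 genes were chosen by name with earlier results of these data known, 10 of the 18412 genes in the tables. They are Trp53, which encodes p53, the inhibitors Mdm2 and Mdm4, and the targets Ccng1, Sesn1, Trp53inp1, Perp, Aen, Phlda3 and Zmat3. Per the labels, polyadenylated RNA was read by strand-specific sequencing, the cells being kept on gelatin in medium with serum and LIF, and the authors deposited exon and intron reads of each gene apart.

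The 23 samples form 11 groups in 3 series. The time course used TT-FHAgo2 cells, a clonal line null for Blm and for Ago1, Ago2, Ago3 and Ago4 that carries CreERT2 and TT-FHAgo2, in which doxycycline (dox) switches on an Argonaute 2 transgene and which is kept at 0.1 µg/mL dox between experiments. These cells had 2.5 µg/mL for 48 h and were then kept without it for 0, 24, 48 or 96 h, with 2 libraries a time. In the rescue the same cells spent 96 h without dox (n = 2), or 96 h without it followed by 48 h at 0.1 or at 2.5 µg/mL (n = 2 each). The genetic series compared the Ago-null clones C62 and C86 (also null for Blm and all 4 Ago genes, with CreERT2, n = 2, 1 library a clone), the line E7 (the same with a floxed human Ago2, n = 3), the line B9 (null for Blm, Ago1, Ago3 and Ago4, n = 2) and AB2.2 wild type (n = 2). Every line but AB2.2 lacks Blm, the Bloom helicase of DNA repair. No label says that libraries of a group came from separate cultures, so p-values measure the spread between libraries, which may be technical. Later times were also longer in culture than earlier ones, by their added hours without dox, and dosed groups were 48 h longer than the undosed one. In these comparisons culture time and Argonaute cannot be told apart. The groups at 0.1 and 2.5 µg/mL had the same hours. In TT-FHAgo2 cells exposure to dox itself also changed along with Argonaute, and these cannot be told apart. In bulk RNA, fewer cells expressing a gene and less RNA per cell cannot be told apart either.

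p53 is a transcription factor held at a low level by Mdm2, a ubiquitin ligase that sends it for degradation, and by Mdm4, a relative of Mdm2 that binds p53 and blocks its activation domain. DNA damage and other stress release p53, which then switches on genes for cell cycle arrest, repair, metabolism and cell death, Mdm2 among them. Because much of this control acts on the protein, Trp53 RNA is a poor guide to p53 activity; ES cells carry a large amount of p53 protein, much of it in the cytoplasm. Argonaute proteins carry microRNAs (miRNAs) to matching sites in messenger RNAs and lower their stability and translation.

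Values below are normalised reads, reads of a gene divided by the size factor of the library, worked out for each library from the authors' group means. Libraries of a group are numbered by depth, the deeper first. Changes are differences of log2(normalised reads + 1) with the standard error (SE) of limma, and a gene was called at a limma adjusted p below 0.05 over all genes tested in that comparison. Library depth was 32.9 to 62.4 M exon reads in the time course, 24.7 to 53.8 M in the rescue and 13.5 to 53.7 M in the genetic series. Ago1 had 0 normalised exon reads in every library of the other groups, against 3514 and 4693 in wild type. Ago2 exon reads were 5199 and 6439 in the clones, against 5200 and 7254 in wild type. They were 10771 and 10817 at 96 h, against 11759 and 12167 at 0 h. The sources used here give neither which part of Ago2 was deleted nor how reads of the transgene were counted. A total over the whole gene therefore checks neither its loss in the clones nor its loss after dox was removed. The ES cell markers Pou5f1, Sox2, Nanog, Zfp42, Esrrb and Klf4 were read in every library, with Klf4 the lowest. Of 7 fibroblast markers, Col1a2, Col3a1 and Postn were at or near 0 in every group of TT-FHAgo2 cells and in the clones and E7, while the summed reads of all 7 were 608 to 2323 over all libraries.

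In mm10 coordinates, Trp53 lies on chromosome 11 at 69580359 to 69591873 (plus strand), Mdm2 on 10 at 117688875 to 117710758 (minus) and Mdm4 on 1 at 132959484 to 133030561 (minus). Of the targets, Ccng1 lies on 11 at 40748552 to 40755311 (minus), Sesn1 on 10 at 41809935 to 41908424 (plus) and Trp53inp1 on 4 at 11156431 to 11174379 (plus). Perp lies on 10 at 18845020 to 18857073 (plus), Aen on 7 at 78895854 to 78911209 (plus), Phlda3 on 1 at 135766119 to 135769136 (plus) and Zmat3 on 3 at 32334792 to 32366014 (minus). All 10 are annotated as protein-coding genes.

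Per kilobase of exon, p53 RNA had the highest mean of the 10 in every group and Sesn1 the lowest, though the libraries of Sesn1 overlapped those of Perp in the clones and in B9. Before dox was removed, at 0 h, Trp53 had 10799 normalised reads per kb, Ccng1 4621, Mdm4 3112, Aen 2881, Trp53inp1 2178, Mdm2 2037, Phlda3 1530, Zmat3 1280, Perp 506 and Sesn1 317. No neighbours in that order overlapped between libraries. By 96 h Trp53inp1 stood above Aen, at 2926, and Phlda3, Aen and Mdm2, at 2158, 2062 and 1981, could not be ordered beyond their libraries' spread.

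When dox was removed, 6 of the 7 targets rose at 48 h and 5 of them stayed higher at 96 h, Aen fell, and the RNA of Mdm2, the inhibitor that is itself a classic target, stayed within a narrow band. At 96 h against 0 h, 7 of the 10 genes were called higher, when 32.4% of all 13652 genes tested were, and 1 lower, when 32.5% were. The median change of the 10 was 0.39, beside -0.01 over all genes tested. At 24 h, 7 were called higher and 1 lower, against backgrounds of 26.5% and 24.1%. At 48 h, 8 were called higher and 1 lower, against 32.1% and 31.2%. The 3 comparisons share their 0 h libraries.

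**Figure D1:**
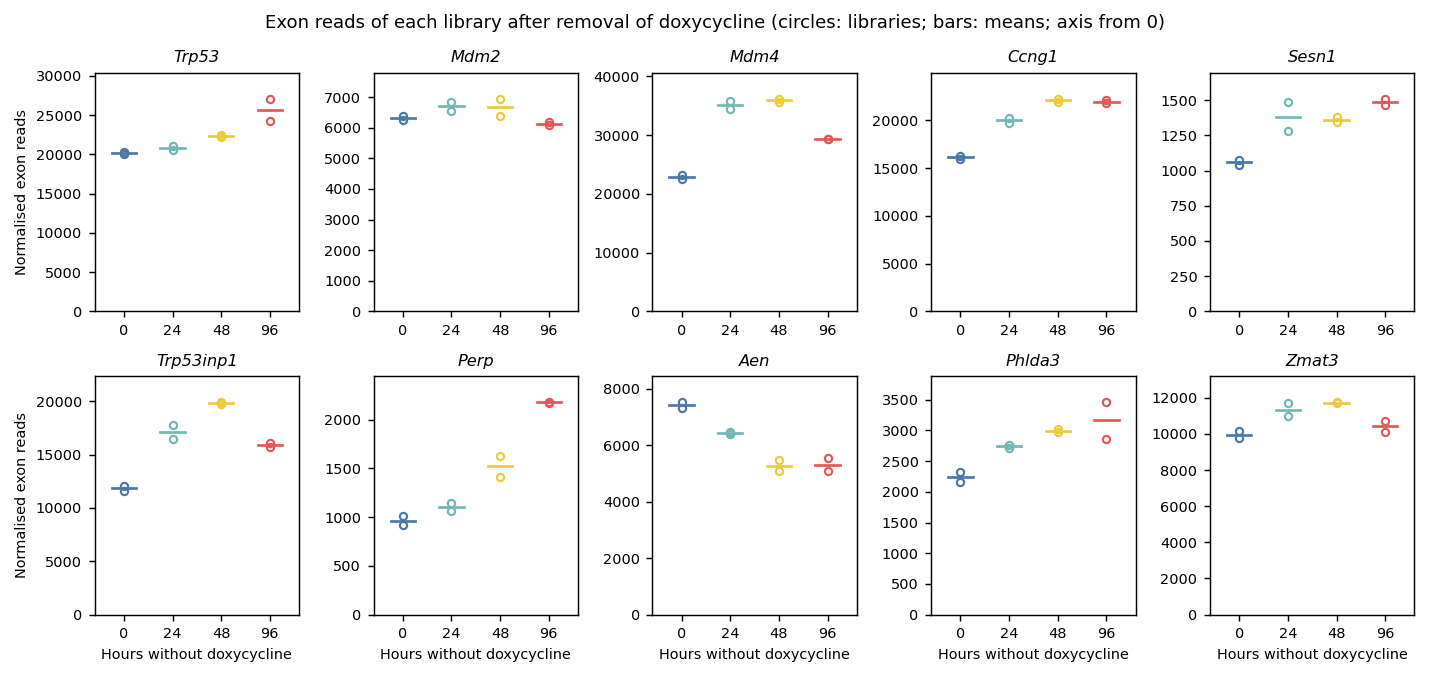
Normalised exon reads (vertical axes, from 0) of the 10 genes at 0, 24, 48 and 96 h without doxycycline; circles are the 2 libraries of a time and bars their means. Perp climbs to 2175 and 2181 at 96 h, the means of Mdm4 and Trp53inp1 are highest at 48 h, Aen is below its 0 h values at every later time, and Mdm2 stays between 6079 and 6950.

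Trp53 itself moved late. Its libraries held 20019 and 20327 normalised reads at 0 h, then 21102 and 20512 at 24 h, 22162 and 22519 by 48 h, with 27076 and 24255 at 96 h. Both 96 h libraries lay above all others, and the 24 h libraries lay only just above those of 0 h. Against 0 h the change was 0.04 ± 0.05 (SE) at 24 h (limma adjusted p = 0.427), 0.15 ± 0.05 at 48 h (adjusted p = 0.00662) and 0.35 ± 0.05 at 96 h (adjusted p = 4.24e-07), a 1.27-fold higher level. Leaving out the second 48 h library ended the 48 h call (0.14, limma adjusted p = 0.0595). The start of Trp53 lies 104 bp from that of Wrap53, on the other strand and without overlap.

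Mdm2 was not called at any time against 0 h. It had 6245 and 6381 normalised reads at 0 h, then 6547 and 6849.9 at 24 h, 6950 and 6382 by 48 h, with 6079 and 6198 at 96 h. Its 95% interval at 96 h ran from -0.14 to 0.06 on the log2 scale, so that a change as large as that of any of the 8 called genes lies outside it. From 24 h on, its level at 96 h was lower by a small step, with a change of -0.13 ± 0.05 (limma adjusted p = 0.0306), which was lost without the second 24 h library (adjusted p = 0.208) or the first 96 h library (adjusted p = 0.0971).

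Mdm4, the other inhibitor, rose early. Its 0 h libraries held 23256 and 22514 normalised reads, those at 24 h 34500.3 and 35844, those at 48 h 35635 and 36205, and those at 96 h 29363 and 29318. It was thus highest at 24 and 48 h, which lie close together, and at 96 h stood between those and the start. The change was 0.62 ± 0.04 at 24 h, 0.65 ± 0.04 at 48 h and 0.36 ± 0.04 at 96 h (limma adjusted p = 9.17e-12, 1.13e-12 and 2.25e-08). From 48 h to 96 h Mdm4 was called lower, by a change of -0.29 ± 0.04 (limma adjusted p = 2.88e-06).

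Among targets that feed back on p53 or on growth signals, Trp53inp1, a stress protein that aids p53 and autophagy, was also higher at 48 h than at 96 h. It had 12066 and 11589 normalised reads at 0 h, then 16465 and 17760.3 at 24 h, 19755 and 19936 by 48 h, with 15717 and 16057 at 96 h. All later libraries were above those of 0 h, and the 48 h pair was the highest. Its change against 0 h was 0.53 ± 0.04, 0.75 ± 0.04 and 0.43 ± 0.04 at the 3 times, and -0.32 ± 0.04 at 96 h against 48 h (limma adjusted p = 3.12e-06). Ccng1 encodes cyclin G1, which brings a phosphatase to Mdm2. It held 16286 and 15940.2 normalised reads at 0 h, then 19744 and 20239.7 at 24 h, 22247 and 21929 by 48 h, with 22108 and 21777 at 96 h. The change was 0.45 ± 0.04 at 96 h against 0 h (limma adjusted p = 5.82e-10) and -0.01 ± 0.04 at 96 h against 48 h, where the libraries overlapped. Sesn1 encodes a sestrin, a brake on mTORC1 growth signalling, and had 1079 and 1041 normalised reads at 0 h, then 1279 and 1488 at 24 h, 1377 and 1347 by 48 h, with 1510.3 and 1469 at 96 h. No later library fell to the 0 h values, and the change at 96 h was 0.49 ± 0.08 (limma adjusted p = 5.62e-06).

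Perp, a membrane protein of cell junctions that p53 also uses in cell death, changed most of the 10 at 96 h, when it was also called higher than at 48 h. Its libraries held 1007 and 915 normalised reads at 0 h, then 1143 and 1067 at 24 h, 1631 and 1412 by 48 h, with 2175 and 2181 at 96 h. The times did not overlap with each other. The change was 0.20 ± 0.08 at 24 h (limma adjusted p = 0.035), a call lost with no filter on low values or without the second 0 h or the first 24 h library (adjusted p = 0.0589, 0.269 and 0.201). It was 0.66 ± 0.08 at 48 h (limma adjusted p = 1.14e-07) and 1.18 ± 0.08 at 96 h (adjusted p = 4.88e-12), a 2.27-fold higher level.

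Aen, a nuclease that aids cell death after DNA damage, went the other way. It had 7538 and 7328 normalised reads at 0 h, then 6411 and 6461 at 24 h, 5474 and 5089 by 48 h, with 5566 and 5072 at 96 h. Every later library was below both 0 h libraries, and the 48 and 96 h libraries overlapped. The change was -0.21 ± 0.05 at 24 h, -0.49 ± 0.05 at 48 h and -0.48 ± 0.05 at 96 h (limma adjusted p = 0.00165, 1.27e-08 and 1.49e-08).

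Phlda3, a competitor of the kinase Akt for membrane lipids, held 2167 and 2322 normalised reads at 0 h, then 2713 and 2769 at 24 h, 2969 and 3022 by 48 h, with 3466 and 2865 at 96 h. Its 96 h libraries spread the most of the 10 genes at that time, and the lower one fell below those of 48 h. The change at 96 h was 0.49 ± 0.07 (limma adjusted p = 1.25e-06). Zmat3, an RNA-binding zinc finger protein, was higher at 24 and 48 h and not called at 96 h. It had 10156 and 9772 normalised reads at 0 h, then 11002.5 and 11692 at 24 h, 11709.7 and 11773 by 48 h, with 10735 and 10126 at 96 h, where 1 library lay within the 0 h range. Its change was 0.19 ± 0.04 at 24 h, 0.24 ± 0.04 at 48 h (limma adjusted p = 0.00129 and 6.91e-05) and 0.07 ± 0.04 at 96 h (adjusted p = 0.204).

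Between the later times the 10 genes parted. At 96 h against 24 h, 4 were called higher (Trp53, Ccng1, Perp, Phlda3), with 29.5% of all genes, and 5 lower (Mdm2, Mdm4, Trp53inp1, Zmat3, Aen), with 27.8%. At 96 h against 48 h, Trp53 and Perp were called higher, 2 of 10 with a background of 20.1%, and Mdm4, Trp53inp1 and Zmat3 lower, 3 of 10 with a background of 16.3%. Of these changes from 24 h, those of Ccng1, Mdm2, Phlda3, Trp53inp1 and Zmat3 were at most 0.20 in size, and each was lost when 1 library or another was left out. The 2 comparisons share the 96 h libraries with each other and with the comparison against 0 h.

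Intron reads, taken here to come from RNA not yet spliced, showed part of the same movement. Mdm4 and Sesn1 each overlap another annotated gene, and whether reads were counted by strand is unknown. At 96 h against 0 h, 4 of the 10 genes were called higher in introns (Mdm4, Phlda3, Sesn1, Trp53inp1), with 22.7% of the 12225 genes tested, and Aen lower, with 21.8%. At 24 h the 3 called higher were Mdm4, Sesn1 and Trp53inp1 (background 18.9%), and none was called lower (background 18.3%), while 2 more, Aen and Trp53, passed an unadjusted p below 0.05, 5 of the 10 in all, when 45.8% of all genes did. At 48 h, Ccng1, Mdm2, Mdm4 and Trp53inp1 were called higher (background 22.2%), and Aen and Trp53 lower (background 21.2%). Several of these calls did not hold when 1 library or another was left out, though the changes kept their direction. That of Mdm2 introns at 48 h was lost with no filter on low values (limma adjusted p = 0.0683) and without the second 0 h, the first 48 h or the second 48 h library (adjusted p = 0.215, 0.0714 and 0.189). That of Phlda3 introns at 96 h was lost without either 0 h library or the first 96 h library (limma adjusted p = 0.0694, 0.0672 and 0.148). Trp53inp1 introns lost theirs without the second 0 h library at 24 h and at 96 h (limma adjusted p = 0.0579 and 0.0816), and Sesn1 introns at 24 h without the second 0 h or the first 24 h library (adjusted p = 0.115 and 0.128). Without the second 0 h library, 3 of the 10 were called at 96 h in place of 5, and 1 at 24 h in place of 3.

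Mdm4 introns followed its exons. They held 8369 and 7715 normalised reads at 0 h, then 12306.5 and 12946 at 24 h, 13981 and 13995 by 48 h, with 11992.5 and 11355 at 96 h. The means of both kinds of read were thus highest at 48 h. The intron change was 0.65 ± 0.05, 0.80 ± 0.05 and 0.54 ± 0.05 against 0 h (limma adjusted p = 1.66e-12, 6.03e-15 and 3.21e-11). Trp53 introns were lower at 48 h while its exons were higher, though the difference between exon and intron change, described below, was not called then. They held 3003 and 3379 normalised reads at 0 h, then 3038.5 and 2709 at 24 h, 2835 and 2706 by 48 h, with 3337 and 3476 at 96 h. At 48 h the intron change was -0.20 ± 0.06 (limma adjusted p = 0.0103, lost without the second 0 h or the second 48 h library, adjusted p = 0.232 and 0.107), beside the exon rise given above, and at 96 h it was 0.10 ± 0.06 (adjusted p = 0.222). Aen introns held 543 and 513 normalised reads at 0 h and 413 and 395 at 96 h, where both libraries were lower, with a change of -0.39 ± 0.11 (limma adjusted p = 0.00421).

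The difference between exon and intron change, tested as such, was called for 1 of the 10 at 96 h against 0 h, when 9.08% of 11939 genes were called in either direction. This was Perp, at 0.74 ± 0.17 (limma adjusted p = 0.0472). Its introns hold few reads, 62.8 and 59.2 at 96 h, against 50.03 and 40.5 at 0 h, and the call ended when any 1 library was left out, with no filter on low values, with only these groups in the fit, and with exon and intron libraries paired by depth (limma adjusted p = 0.0523 to 0.169 over these). Trp53 had a difference of 0.24 ± 0.11 (limma adjusted p = 0.215) and Mdm4 of -0.19 ± 0.09 (adjusted p = 0.217). At 24 h and 48 h none of the 10 was called by limma (backgrounds 4.12% and 9.33%). An unadjusted p below 0.05 was reached by 3 of the 10 at 24 h and 4 at 48 h, near the 26.4% and 29% of all genes. Exon and intron libraries of a group carry no shared name, and in TT-FHAgo2 cells they were matched on correlations of only 0.0259 to 0.155, which limits this test.

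**Figure D2:**
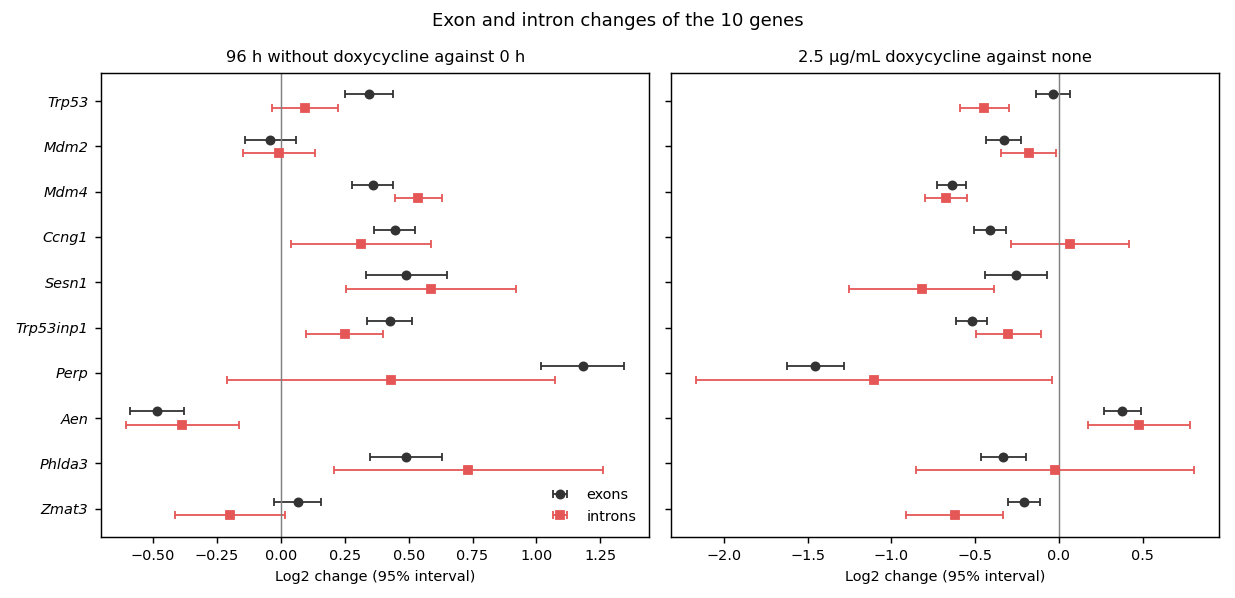
Log2 changes of exon reads (black circles) and intron reads (red squares) with 95% intervals, at 96 h without doxycycline against 0 h (left) and at 2.5 µg/mL doxycycline against none (right), with n = 2 libraries a group. On the left the exon intervals of 7 genes lie wholly above 0 and that of Aen wholly below it; on the right the exon interval of Aen alone lies wholly above 0, and Trp53 exons sit at -0.03 beside introns at -0.45.

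When dox was given back at 2.5 µg/mL, 8 of the 10 genes were lower than in cells left without it and Aen was higher. The background was 32% of 13176 genes lower and 31.8% higher, and the median change of the 10 was -0.33, beside 0.00 over all genes tested. No library is shared between removal and return. The 6 genes Mdm4, Ccng1, Perp, Sesn1, Phlda3 and Trp53inp1 were called higher at 96 h without dox and lower at 2.5 µg/mL, and Aen was called lower and then higher. That is 70% of the 10 genes with opposite calls, where 48.9% of the 13149 genes tested in both series had them. Among the 6684 of these called in both, 3230 were higher and then lower, 3198 the reverse, and 256 in the same direction. Opposite calls were thus the rule among genes called in both, and not particular to the 10. None of the 10 was called in the same direction in both, which was rare among all genes as well. Trp53 was called on removal and not on return, and Mdm2 and Zmat3 on return and not at 96 h of removal.

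**Figure D3:**
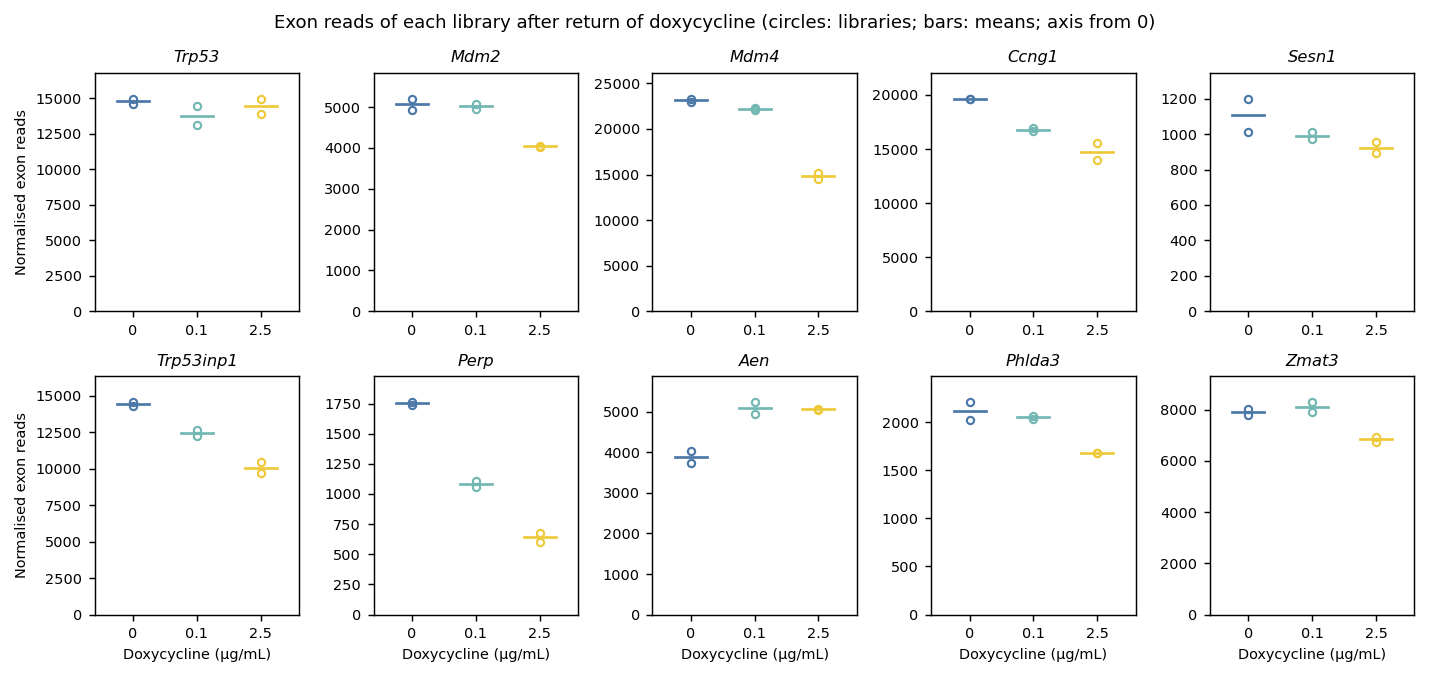
Normalised exon reads (vertical axes, from 0) of the 10 genes after 96 h without doxycycline and then 48 h at 0.1 or 2.5 µg/mL, beside cells without it (0); circles are the 2 libraries of a dose and bars their means. Perp steps down at each dose to 601 and 678, Mdm4 and Mdm2 drop only at 2.5 µg/mL, Aen is higher at both doses, and the Trp53 libraries at 2.5 µg/mL overlap those of both other groups.

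Trp53 exon reads were not called at either dose. They were 14587 and 14947 normalised reads without dox, then 14434 and 13089.9 at 0.1 µg/mL, with 14952 and 13905 at 2.5 µg/mL. Both libraries at 0.1 µg/mL lay below those without dox, with a change of -0.10 ± 0.05 (limma adjusted p = 0.088). That change was called with only these groups in the fit (limma adjusted p = 0.0406), without the first library at 0.1 µg/mL (-0.17, adjusted p = 0.0171) and without either library at 2.5 µg/mL (adjusted p = 0.0428 and 0.044). The libraries at 2.5 µg/mL lay on either side of those without dox, and there the change was -0.03 ± 0.05, with a 95% interval from -0.13 to 0.07 (limma adjusted p = 0.557). Its introns had 1460.2 and 1525.5 normalised reads at 2.5 µg/mL, against 2015 and 2051 without dox. They did not overlap, and the intron change of -0.45 ± 0.07 was called (limma adjusted p = 1.19e-05). The exon minus intron difference was 0.45 ± 0.12 (limma adjusted p = 0.0706) and was not called.

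Both inhibitors were called at the high dose and not at the low one, and the doses themselves differed. Mdm2 had 5204 and 4935 normalised reads without dox, then 4951 and 5081 at 0.1 µg/mL, with 4014.5 and 4057 at 2.5 µg/mL. Only the libraries at 2.5 µg/mL stood apart, with a change of -0.33 ± 0.05 against no dox (limma adjusted p = 2.8e-06) and -0.31 ± 0.05 against 0.1 µg/mL (adjusted p = 1.63e-05). Mdm4 had 22934.5 and 23309 normalised reads without dox, then 22052 and 22309 at 0.1 µg/mL, with 15192 and 14505 at 2.5 µg/mL. The low dose lay just under the undosed cells and the high dose far below both. Its change was -0.06 ± 0.04 at 0.1 µg/mL (limma adjusted p = 0.262) and -0.64 ± 0.04 at 2.5 µg/mL (adjusted p = 4.04e-13), a 1.56-fold lower level.

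Perp and Ccng1 stepped down at both doses. Perp held 1764 and 1739.6 normalised reads without dox, then 1059 and 1104.5 at 0.1 µg/mL, with 601 and 678 at 2.5 µg/mL. No dose overlapped with another, and the changes against no dox were -0.69 ± 0.08 and -1.46 ± 0.08 (limma adjusted p = 1.5e-07 and 2.3e-14), the high dose leaving a 2.74-fold lower level. Ccng1 had 19645 and 19596 normalised reads without dox, then 16922 and 16619.8 at 0.1 µg/mL, with 14009 and 15512 at 2.5 µg/mL. The doses again did not overlap, and the changes were -0.23 ± 0.05 and -0.41 ± 0.05 (limma adjusted p = 0.000235 and 1.28e-08). Trp53inp1 did the same with 14589.6 and 14316 normalised reads without dox, then 12645 and 12253 at 0.1 µg/mL, with 9712 and 10450.1 at 2.5 µg/mL, changes of -0.22 ± 0.05 and -0.52 ± 0.05 (limma adjusted p = 0.000349 and 1.23e-10).

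Aen was already higher at the low dose. It held 4036 and 3749.8 normalised reads without dox, then 5247 and 4941 at 0.1 µg/mL, with 5067 and 5056 at 2.5 µg/mL. Both doses lay above the undosed cells and overlapped with each other. The change was 0.39 ± 0.05 at 0.1 µg/mL (limma adjusted p = 1.16e-06) and 0.38 ± 0.05 at 2.5 µg/mL (adjusted p = 5.64e-07), and the difference between the doses had a 95% interval from -0.12 to 0.10.

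Sesn1, Phlda3 and Zmat3 were called lower at the high dose and not at the low one. The difference between the doses was itself called for Phlda3 and Zmat3, and for Sesn1 it was -0.10 ± 0.09 (limma adjusted p = 0.383). Phlda3 had 2209 and 2022 normalised reads without dox, then 2066 and 2029 at 0.1 µg/mL, with 1679.9 and 1680.3 at 2.5 µg/mL, a change of -0.33 ± 0.07 at the high dose (limma adjusted p = 8.4e-05). Zmat3 had 6752 and 6945 at 2.5 µg/mL, against 7783 and 8025.5 without dox, a change of -0.21 ± 0.05 (limma adjusted p = 0.000385). Sesn1 had 891 and 956 at 2.5 µg/mL, against 1199 and 1014 without dox, and its change of -0.26 ± 0.09 (limma adjusted p = 0.0142) was lost without the first undosed library (adjusted p = 0.303) or the first library at 2.5 µg/mL (adjusted p = 0.0912). In all 3 the high-dose libraries lay below both undosed ones.

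At 0.1 µg/mL the counts of the 10 were thus 3 lower (Ccng1, Perp, Trp53inp1), with a background of 22.1%, and 1 higher (Aen), with a background of 22%. At 2.5 against 0.1 µg/mL, 7 of the 10 were called lower (Mdm2, Mdm4, Ccng1, Perp, Phlda3, Trp53inp1, Zmat3), with a background of 21%, and none higher by limma, adjusted or not, with a background of 20%. In introns, 5 genes were called lower at 2.5 µg/mL against no dox (Trp53, Mdm4, Sesn1, Trp53inp1, Zmat3; background 22.1%) and Aen higher (background 24.3%). The call of Aen was lost without the first undosed library or the first at 2.5 µg/mL (limma adjusted p = 0.105 and 0.139), that of Sesn1 without the second undosed library (adjusted p = 0.0522) and that of Trp53inp1 without the first (adjusted p = 0.11). At 0.1 µg/mL none of the 10 was called in introns by limma, where the backgrounds were 5.33% higher and 5.01% lower, and 3 had an unadjusted p below 0.05 (Aen, Mdm2, Mdm4), when 23.4% of all genes did. The exon minus intron difference was called for none of the 10 at 2.5 µg/mL (background 11.3%), with an unadjusted p below 0.05 for Ccng1, Sesn1, Trp53 and Zmat3, when 32% of all genes had one. The doses share their undosed libraries.

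On return, intron changes lay on either side of exon changes. Ccng1 introns had 193.5 and 246 normalised reads at 2.5 µg/mL, against 204 and 212 without dox, and overlapped, with a change of 0.07 ± 0.17 beside the exon change of -0.41. Its exon minus intron difference of -0.44 ± 0.17 had an adjusted p of 0.156 in limma. Phlda3 introns are sparse, with 32.8 and 55.55 normalised reads at 2.5 µg/mL, against 41.5 and 45.35 without dox, and overlapped, the 95% interval of their change running from -0.85 to 0.81. Mdm4 introns held 5593 and 4838 normalised reads at 2.5 µg/mL, against 8278.5 and 8333 without dox, a change of -0.67 ± 0.06 (limma adjusted p = 1.44e-09) beside -0.64 in exons.

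The seed of a miRNA, its bases 2 to 8, pairs with a matching site in the 3′ untranslated region (UTR) of its targets. The abundant miRNAs of mouse ES cells include the miR-290 cluster on chromosome 7 and the related miR-17 family. Mature sequences are shown with the seed in capitals, from RefSeq (GRCm38.p6), because Argonaute carries them and 3 of the 7 targets hold a match to the first seed.
miR-294-3p: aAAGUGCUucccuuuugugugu
miR-291a-3p: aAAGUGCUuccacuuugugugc
miR-295-3p: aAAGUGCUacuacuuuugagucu
miR-17-5p: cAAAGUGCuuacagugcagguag
miR-20a-5p: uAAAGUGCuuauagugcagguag
The first 3 share the seed AAGUGCU, whose site AGCACTT was found in the 3′ UTR of Ccng1, Zmat3 and Trp53inp1, 3 of the 10 genes, and in 15.8% of the 13259 tested genes with a 3′ UTR. The other two share AAAGUGC, whose site GCACTTT was found in Ccng1 and Trp53inp1, and in 13.4% of all. Each site stands below in capitals within its UTR, on the strand of the transcript.
Ccng1 AGCACTT, base 309 of 2316: gttactgaaatAGCACTTctttaaattac
Ccng1 GCACTTT, base 1461 of 2316: atttcatgaatGCACTTTtaaggtattaa
Zmat3 AGCACTT, base 2373 of 6692: tgggtttccgaAGCACTTggaagttccct
Trp53inp1 AGCACTT, base 4267 of 4420: atgaacagcacAGCACTTtgccaaaaaac
In Trp53inp1 the 2 sites overlap, GCACTTT starting 1 base after AGCACTT. Long UTRs hold more sites by their length alone: AGCACTT is in 60.7% of UTRs of a length like that of Zmat3, in 45.1% for Trp53inp1 and in 26.2% for Ccng1. GCACTTT is in 37.9% of UTRs of a length like that of Trp53inp1 and in 21.2% for Ccng1. All 3 genes with the site rose at 48 h and were lower at 2.5 µg/mL dox. So did Mdm4, Perp, Sesn1 and Phlda3, whose UTRs hold neither of these 2 sites, and a match is not evidence that a site is used. The p53-induced miRNA miR-34a-5p has its site CACTGCC in Mdm4, Sesn1 and Aen, and in 16.1% of all UTRs. Of the other seeds searched, that of miR-19b-3p has its site TTTGCAC in 5 of the 10, Mdm4, Zmat3, Phlda3, Trp53inp1 and Aen, of which Aen fell at 48 h, and in 12% of all. That of miR-16-5p, TGCTGCT, was found in Ccng1, Zmat3, Sesn1 and Phlda3 and in 22.5% of all. The sites of miR-92a-3p (GTGCAAT, 6.83% of all), miR-125b-5p (CTCAGGG, 14.7%) and let-7a-5p (CTACCTC, 9.63%) were found in 2 of the 10 each. For miR-34a-5p and these other seeds no share among UTRs of like length was worked out. The UTRs of Mdm4, Zmat3, Trp53inp1 and Aen are long, at 5436, 6692, 4420 and 3793 bases, against a median of 999.

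p53 binds paired copies of a 10-base half-site. RefSeq promoter windows, the 250 bases before each start (GRCm38.p6), were matched for 7 of the 10 genes and searched on both strands for the p53 half-site consensus. The windows of Trp53, Mdm2 and Ccng1, and 1 of the 2 windows of Sesn1 and of Aen, held 1 half-site each, beside 7.13% of all 32851 windows. Those of Mdm4 and Phlda3, and the other window of Sesn1 and of Aen, held none. No window of these genes held a pair, beside 0.0639% of all. The windows of Mdm2, whose exon reads were not called at any time against 0 h, and of Ccng1, whose exon reads rose, are shown up to the annotated start of the gene, read 5′ to 3′ on the minus strand of each, with the half-site in capitals.
Mdm2, chr10:117710759-117711008: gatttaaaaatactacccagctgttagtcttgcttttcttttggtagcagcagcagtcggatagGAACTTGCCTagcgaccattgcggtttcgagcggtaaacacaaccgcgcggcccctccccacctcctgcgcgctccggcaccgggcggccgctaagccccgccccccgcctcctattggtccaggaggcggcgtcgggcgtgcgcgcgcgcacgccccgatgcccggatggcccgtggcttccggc
Ccng1, chr11:40755312-40755536: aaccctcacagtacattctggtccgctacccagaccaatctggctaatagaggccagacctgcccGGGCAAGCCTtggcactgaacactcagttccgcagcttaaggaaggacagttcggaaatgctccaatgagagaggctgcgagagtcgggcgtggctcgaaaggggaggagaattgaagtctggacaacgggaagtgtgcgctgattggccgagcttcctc
The half-site lies 186 bases before the RefSeq start of Mdm2 and 185 before that of Ccng1. These windows do not cover first introns, where p53 sites of Mdm2 are known.

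In the genetic series little was called among the 10 genes. The tests of a gene share an estimate of spread from all groups, so the spread of the clones also enters comparisons without them. The median SE over all genes was 0.336 to 0.368, against 0.0797 in the time course, so a change had to be larger to be called. The libraries of the Ago-null clones differed widely: among the 10 genes the median log2 difference between them was 0.742, and 0.565 over all genes. The libraries of the line E7 (n = 3) ranged over 0.489 and 0.563. Those of B9 ranged over 0.338 and 0.363, and those of wild type over 0.146 and 0.321. The clone libraries also differed in depth, with 53.7 and 19.5 M exon reads. With 1 library a clone, a difference between clones cannot be told apart from one between libraries. Ccng1 had 20133 and 5372 normalised reads in the clones, 12439, 20776 and 16417 in E7, 9027 and 11461 in B9, and 12999.5 and 12293 in wild type. One clone library lay near the top of the whole series and the other below every other library. Mdm4, with 17612 and 7683 in the clones, and Trp53inp1, with 12833 and 5142, were split in the same order.

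**Figure D4:**
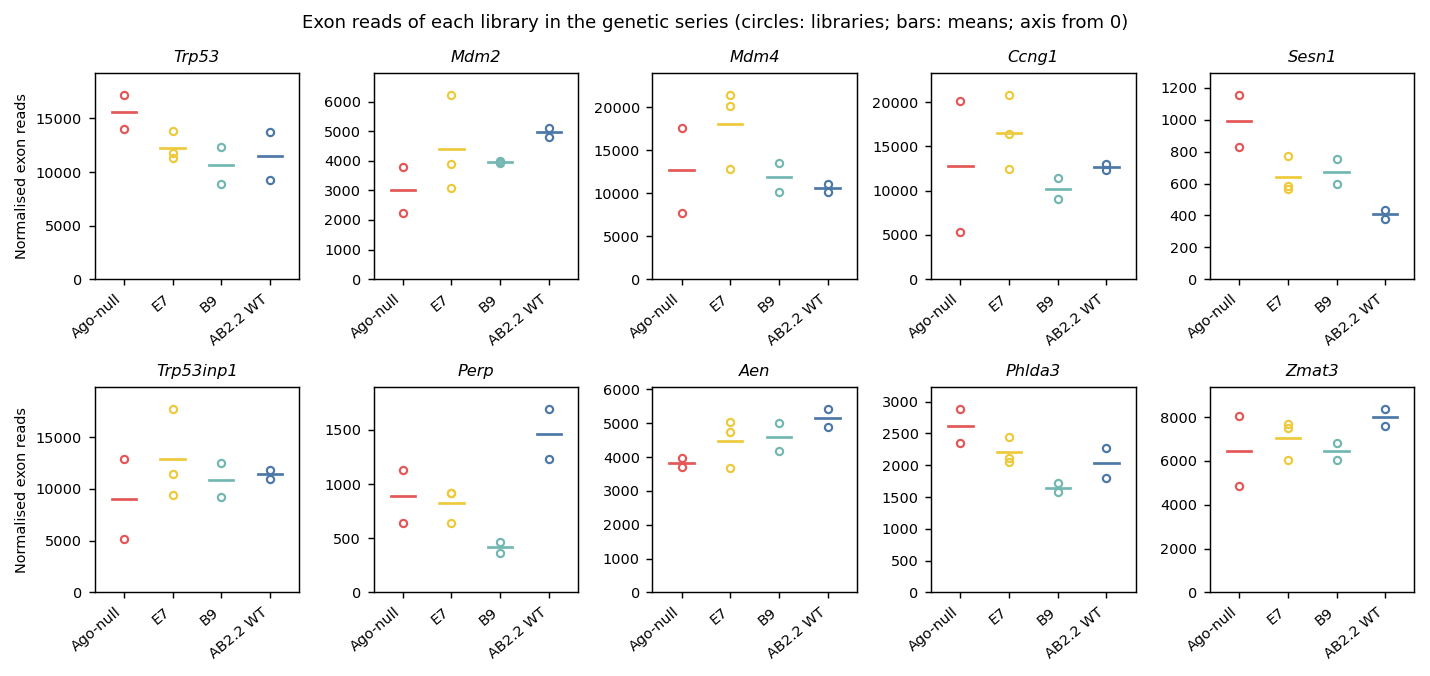
Normalised exon reads (vertical axes, from 0) of the 10 genes in the Ago-null clones, E7, B9 and AB2.2 wild type; circles are libraries (n = 2, 3, 2 and 2) and bars their means. The clones stand far apart for Ccng1, Mdm4 and Trp53inp1, and for Sesn1 and Trp53 both clone libraries lie above those of the other lines.

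Sesn1 alone of the 10 was called, in 1 comparison. It had 829 and 1154 normalised reads in the clones, 568, 775 and 583 in E7, 597 and 751 in B9, and 434.5 and 379 in wild type. Both clone libraries lay above all others and both wild-type libraries below. The change was 1.27 ± 0.30 against wild type (limma adjusted p = 0.0157), 0.54 ± 0.30 against B9 (adjusted p = 0.24) and 0.62 ± 0.27 against E7 (adjusted p = 0.234). The call against wild type was lost with only these groups in the fit (limma adjusted p = 0.0501), without either wild-type library (adjusted p = 0.0617 and 0.112) and without the second clone library (adjusted p = 0.0702). With 1 library left out, the number of the 10 genes called against wild type ranged from 0 to 6, and 6 were called without the first clone library. Without that library 3 were called against E7, and without the second clone library 1 was called against B9, beside 0 with all libraries.

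Of the 10, 1 was thus called for clones against wild type, when 18.6% of 13211 genes were. None was called by limma for clones against E7 (background 1.5%), clones against B9 (13%), E7 against wild type (4.56%), B9 against wild type (0.0681%) or E7 against B9 (0.0681%). At an unadjusted p below 0.05 there were 1, 2, 2, 2 and 1 of the 10 in these 5 comparisons, when 20.3%, 31.4%, 19.6%, 7.33% and 8.47% of all genes had one. Perp was among these in 4 of the 5. It had 1132 and 638 normalised reads in the clones, 918, 638 and 919 in E7, 468 and 364 in B9, and 1695 and 1232 in wild type. B9 was the lowest group and wild type the highest, with no overlap between either and any other group, and B9 against wild type gave -1.81 ± 0.34 (limma adjusted p = 0.0826, or 0.0496 without the first clone library). Trp53 had 17162 and 14029.8 normalised reads in the clones, 13807, 11775 and 11266 in E7, 12379 and 8896 in B9, and 13761 and 9263 in wild type. The clones lay above the other lines in both libraries, with changes of 0.34 ± 0.25, 0.56 ± 0.27 and 0.46 ± 0.27 that were not called (limma adjusted p = 0.457, 0.181 and 0.254). Mdm2 had 3789 and 2245 in the clones, 3895, 6212 and 3091 in E7, 3988.5 and 3916.5 in B9 and 4818 and 5112 in wild type, a change of -0.77 ± 0.34 against wild type (limma adjusted p = 0.132).

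Other known p53 targets moved in both directions. The list, chosen from textbook knowledge with earlier results of these data known, names 37, of which 36 are in the tables. At 96 h against 0 h 18 of the 36 rose, with a background of 32.4%, 7 fell, with a background of 32.5%, and 11 were not called, with a median change of 0.19. The 5 with the largest changes were all higher. Cdkn1a, the cell cycle inhibitor p21, averaged 9916 ± 118 normalised reads at 96 h and 1853 ± 5 at 0 h (SD, n = 2 each), a change of 2.42 ± 0.05 (limma adjusted p = 2.11e-21). Btg2, an antiproliferative factor, averaged 5907 ± 39 and 1697 ± 66 normalised reads (96 h and 0 h, SD, n = 2 each), with a change of 1.80 ± 0.06. The ribonucleotide reductase subunit Rrm2b changed by 1.24 ± 0.10, the repair polymerase Polk by 1.16 ± 0.07 and the autophagy gene Dram1, at only 73.6 and 20.4 mean normalised reads at 96 h and 0 h, by 1.81 ± 0.56 (limma adjusted p = 1.41e-10, 3.11e-13 and 0.00679).

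On return at 2.5 µg/mL, 17 of the 35 tested targets fell (background 32%), 9 rose (background 31.8%) and 9 were not called, with a median of -0.21. The same 5 genes had the largest changes. Cdkn1a averaged 5692 ± 72 normalised reads without dox, 2612 ± 44 at 0.1 µg/mL and 1184 ± 30 at 2.5 µg/mL (SD, n = 2 each), a change of -2.26 ± 0.06 at the high dose (limma adjusted p = 3.37e-21). Polk, Rrm2b, Btg2 and Dram1 changed by -1.57 ± 0.08, -1.50 ± 0.11, -1.47 ± 0.06 and -2.43 ± 0.40. Of these 35 targets, 14 were higher on removal and lower on return and 5 the reverse, 54.3% against 48.9% of all genes. That is all 19 called in both series, where nearly all genes called in both also had opposite calls. At 0.1 µg/mL, 10 fell (background 22.1%), 4 rose (background 22%) and 21 were not called.

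Of the regulators and cofactors of p53, 32 listed and 30 tested, 6 rose (background 32.4%), 14 fell (background 32.5%) and 10 were not called at 96 h, with a median of -0.07. Smyd2, a lysine methyltransferase that represses p53, averaged 2219 ± 249 normalised reads at 96 h and 921 ± 12 at 0 h (SD, n = 2 each), a change of 1.26 ± 0.08 (limma adjusted p = 1.37e-12). Trp73, the p53 relative, changed by 0.86 ± 0.10, the methyltransferase Setd7 by 0.59 ± 0.06, the cofactor Ppp1r13b by 0.44 ± 0.12 and the ribosomal protein Rpl11, which binds Mdm2, by -0.44 ± 0.05. At 2.5 µg/mL, 11 regulators rose and 11 fell, near the backgrounds of 31.8% and 32%, and 8 were not called. Among those that fell were Smyd2 (-1.31 ± 0.09), Trp73 (-0.66 ± 0.15), Setd7 (-0.49 ± 0.07), the damage kinase Atm (-0.77 ± 0.06) and the p53-binding repair protein Trp53bp1 (-0.72 ± 0.06).

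Markers of cell types moved in both directions. Of the 6 ES cell markers, 2 were called higher and 4 lower at 96 h against 0 h, and 4 higher and 1 lower at 2.5 µg/mL against no dox. The summed reads of 4 neuroectoderm markers were 3680.1 to 4157 at 96 h and 2505 to 2775 at 0 h, and 1443 to 1570.4 at 2.5 µg/mL and 2229 to 2549 without dox. Of the 3 tested, 1 was called higher at 96 h, with changes from -0.21 to 1.14, and 1 higher and 1 lower at 2.5 µg/mL. The sums of 5 trophoblast markers were 5912 to 6141 at 96 h and 4257 to 4328 at 0 h, with Elf5 the lowest of them at 0 h and Cdx2 at 96 h, and 3211.5 to 3219 at 2.5 µg/mL and 4466.5 to 4629.8 without dox. Of the 3 tested, 1 was called higher at 96 h, with changes from -0.36 to 1.45, and 1 lower at 2.5 µg/mL. The sums of 4 mesoderm markers were 505 to 600.1 at 96 h and 349 to 351 at 0 h, and 204.5 to 216 at 2.5 µg/mL and 328 to 373 without dox, with T the lowest in each. Of the 3 tested, 2 were called higher at 96 h and 2 lower at 2.5 µg/mL. The sums of 5 primitive endoderm markers went the other way, with 333 to 354.5 at 96 h and 391 to 412.5 at 0 h, and 268 to 332 at 2.5 µg/mL and 217 to 247 without dox. Of those tested, 1 of 4 was called higher and 2 lower at 96 h, and 2 of 3 higher and 1 lower at 2.5 µg/mL. The sums of 7 fibroblast markers were 2120.3 to 2323 at 96 h and 1538.5 to 1569 at 0 h, with 3 of the 7 at 0 in some library, and 1266 to 1440.1 at 2.5 µg/mL and 1484 to 1621 without dox. Of the 3 tested, 2 were called higher at 96 h, and 1 higher and 1 lower at 2.5 µg/mL. The part of these cells in the changes of the 10 genes was not tested.

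Over the 11 groups, with each series centred on its own mean, the genes most like Trp53 were Nosip, Foxk1 and Ap1m2, with Pearson's r of 0.983, 0.977 and 0.976. Those most like Mdm2 were Pnma2, Depdc7 and Polr3d, with r of 0.980, 0.971 and 0.965, among 10456 genes compared. Between the 2 the r was -0.62. The groups share series and line, so these are descriptions with no test. Trp53 spanned -0.22 to 0.33 and Mdm2 -0.41 to 0.31 on the centred log2 scale.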

How the data were processed

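The members and lists were chosen with earlier results of these data known. The authors deposited signal columns of normalised reads, means over the libraries of each group, per the file headers; TopHat2 2.0.12, DESeq and mm10 were used, per the submitters' processing notes. Nothing in the sources says which read counter or annotation was used, nor if strand was. Reads of Trp53 that fit its pseudogene are therefore uncertain, as are those of Mdm4 and Sesn1, which overlap Gm29257 and 9930024M15Rik. Each mean was resolved into whole reads per library: 405032 of 405064 values were solved, including every value of the 10 genes with a single solution. Of these, 70, all in E7 and among them Pou5f1, Sox2, Nanog, Zfp42 and Esrrb, had several solutions, of which the only one with every library within a set fold of the group mean was taken. The other 32, all E7 exons, also had several and were left out. Tested on simulated data, the search gave 0 wrong values. Libraries are numbered by depth, and which sample each is remains unknown. Log2(normalised reads + 1) was tested with limma 3.58.1 (R 4.3.3), a trended prior, 1 fit per table and Benjamini-Hochberg adjustment, for genes with a mean of at least 10. The design named a test for library values; with group means deposited, it was run on the recovered ones. Exon minus intron values were centred per library. All 10 genes are named, and from each pathway list the 5 called genes with the largest change. A 95% interval uses limma's degrees of freedom. Alternatives were other pseudocounts, no filter, TMM factors, fewer groups and left-out libraries.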

Additional observations from a re-analysis of the deposited data

How the results depend on the processing

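Changes of call were counted for 125 tested results of the 10 genes (log2 changes), which are not all the tests made on them. There were 1578 repeats of these under other settings, and 1496 kept direction and side of the threshold. A call was lost in 51 and gained in 11, and 20 turned direction. Results outside the 125 also gained calls, as the numbers of genes called below show. All 20 that turned were small changes not called in the first place, and all came from leaving out 1 library. Results outside the 125 could turn as well and are not listed. Ccng1 in clones against B9, without the first clone library, is an example. Ranges with 1 library left out, lowest to highest, follow for the 20. At 96 h against 48 h they were -0.0575 to 0.0767 for Aen, -0.0204 to 0.0013 for Ccng1 and -0.0643 to 0.2103 for Phlda3. At 0.1 µg/mL against no dox they were -0.0531 to 0.0233 for Mdm2 and -0.1091 to 0.0181 for Phlda3, at 2.5 µg/mL against no dox -0.0867 to 0.0180 for Trp53, and at 2.5 against 0.1 µg/mL -0.0518 to 0.0347 for Aen and -0.0015 to 0.1395 for Trp53. They were -0.3512 to 0.4764 for Perp in clones against E7, -0.1696 to 0.4015 for Trp53 in E7 against wild type and -0.3911 to 0.1800 for Trp53 in B9 against wild type, and in E7 against B9 -0.1879 to 0.3155 for Mdm2, -0.2412 to 0.0897 for Sesn1 and -0.0168 to 0.4598 for Trp53. Numbers of the 10 genes called moved, with 1 library left out, over 1 to 4 for introns at 24 h against 0 h, 3 to 6 for introns at 96 h against 0 h, 0 for exon minus intron at 96 h against 0 h, 0 to 2 for introns at 0.1 µg/mL, 0 to 3 for clones against E7, 0 to 1 for clones against B9, 0 to 6 for clones against wild type and 0 to 1 for B9 against wild type. With only the groups compared in the fit, 0 were called for exon minus intron at 96 h, 1 for introns at 0.1 µg/mL and 0 for clones against wild type. With no filter on low values, or with exon and intron libraries paired by depth (chosen after seeing the data), 0 were called for exon minus intron at 96 h. The cause was not tested. Where a left-out library leaves 1 in its group, that one is assumed to vary like the other groups. No paired analysis was possible because the deposited columns carry no replicate number. The edgeR and DESeq2 alternatives were not run, because the deposited unit is not counts. With 2 libraries in most groups, and clone libraries that differ widely, the precision of the genotype comparisons was low.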
